A study of Mus musculus with 11 samples.

Results

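Imprinted genes are transcribed mainly from the allele inherited from 1 parent. They were chosen here by name, as 34 genes with known maternal or paternal expression whose Ensembl IDs were looked up in a table of 37820 gene IDs. Of the 34, 14 are known as maternally expressed and 20 as paternally expressed. An ID was found for 33, and the level of Kcnq1ot1 was not analysed here. A level of at least 1 FPKM (fragments per kilobase of exon, scaled to the mapped fragments of the library, a level per length of transcript) in at least 2 libraries was reached by 30 members, which were tested, while Ascl2, Rtl1 and Usp29 were below it. Parental expression is background knowledge throughout, since 1 value per gene does not separate the alleles.

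RNA-seq covered 11 libraries of 5 sorted mouse populations, with 3 libraries of pre-HSCs and 2 of each other population. Endo (CD31+ Runx1:GFP- Kit- CD45- CD41-) and hemogenic endothelium (HE; CD31+ Runx1:GFP+, Kit low or negative, CD45- CD41-) came from the major arteries of E10.5 embryos of B6C3F1 females and Runx1tm4Dow males, in which GFP is made from the endogenous Runx1 locus. Pre-HSCs (CD31+ CD144+ ESAM+ Kit+ Ly6a:GFP+) came from embryos of superovulated B6C3F1 females and males with a GFP transgene driven by Ly6a regulatory sequences. The labels give E10.5 for them where the methods of the study give a later day. Fetal liver HSCs (FL HSCs; Lin- Sca1+ Kit+ CD150+ CD48-) were sorted at E14.5 from B6C3F1 by B6129SF1 matings. Bone marrow HSCs (BM HSCs) came from 6- to 8-week-old B6C3F1 and B6129SF1 mice of both sexes, sorted as Lin- Sca1+ Kit+ CD150+ with CD48 and CD135 excluded in the methods and CD34 in a supplementary table. The labels name the strain B6129SF1 for every population. Cells were pooled from many embryos, and the study calls the libraries biological replicates. Strain, superovulation, tissue and age changed together with the population and cannot be told apart from it.

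Markers of the sorted cells were present. Endothelial markers (8 genes) summed to 1632 to 2405 FPKM in the 7 Endo, HE and pre-HSC libraries and 137 to 167 in HSCs, and hematopoietic markers (8 genes) to 14.6 to 34.5 in Endo and HE, 145 to 181 in pre-HSCs and 567 to 937 in HSCs. Germ cell markers (8 genes), of cells that erase imprints, summed to 229 and 162 FPKM in Endo, 35.5 and 28 in HE and at most 8.83 elsewhere, and their part in the members' levels was not tested. Erythroid markers summed to 3932 to 5754 FPKM in Endo and HE.

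At an imprinted domain a differentially methylated region is marked in the egg or the sperm, and the mark is kept through the cell divisions of the embryo. Several imprinted genes act on fetal growth: Igf2 encodes a growth factor of the fetus, Igf2r a receptor that carries IGF2 to lysosomes, Grb10 an adaptor that restrains insulin and IGF receptor signaling, and Cdkn1c the cell cycle inhibitor p57. Many are highly expressed in embryonic and placental tissue and low after birth. In the blood system, p57 and the H19-Igf2 domain are known for their part in the quiescence of adult HSCs.

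Several members are hosts of miRNAs, and the sequences of some hosts that fell into FL HSCs are shown for what these transcripts carry. The mature strands below are RefSeq entries (GRCm38.p6), 5′ to 3′, with the seed (bases 2 to 8) in capitals. Mature miRNAs were not measured, because the libraries were made from poly(A) RNA.
H19 miR-675-5p: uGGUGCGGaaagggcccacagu
H19 miR-675-3p: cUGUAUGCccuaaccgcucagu
Igf2 miR-483-5p: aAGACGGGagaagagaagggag
Igf2 miR-483-3p: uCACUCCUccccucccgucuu
Mest miR-335-5p: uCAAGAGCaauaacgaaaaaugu
Mest miR-335-3p: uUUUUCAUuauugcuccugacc
Meg3 miR-770-5p: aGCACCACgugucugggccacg
Mirg miR-453: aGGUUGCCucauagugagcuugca
Mirg miR-496a-5p: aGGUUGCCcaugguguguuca

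The last pair shares the seed GGUUGCC. In all, 64 mature miRNAs lay within 8 members, 40 of them on the member's strand and 24 opposite Rtl1. Mirg held 19 and Rian 6. Besides the pair shown, 1 other seed was shared.

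Maternal methylation of the promoter is known to silence 1 allele of Mest and of Plagl1, and ZFP57, which keeps such marks, binds the methylated motif TGCCGC. The 250 bases before an annotated start of these genes, as given by RefSeq for GRCm38.p6 on the + strand, follow with matches to TGCCGC or its reverse complement GCGGCA in capitals.
Mest, chr6:30737800-30738049: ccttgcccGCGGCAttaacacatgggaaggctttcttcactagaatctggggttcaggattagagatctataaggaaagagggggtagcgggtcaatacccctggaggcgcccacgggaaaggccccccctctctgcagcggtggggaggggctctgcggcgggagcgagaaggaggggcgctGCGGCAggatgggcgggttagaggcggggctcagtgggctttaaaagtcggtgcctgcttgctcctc
Plagl1, chr10:13090582-13090831: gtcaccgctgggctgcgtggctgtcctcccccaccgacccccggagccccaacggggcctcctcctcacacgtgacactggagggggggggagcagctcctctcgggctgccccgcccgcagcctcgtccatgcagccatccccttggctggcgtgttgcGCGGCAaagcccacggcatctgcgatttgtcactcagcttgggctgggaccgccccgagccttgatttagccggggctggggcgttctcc

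The Mest window held 2 matches and 14 CpG dinucleotides, and the Plagl1 window 1 match and 19 CpG. Over all 32851 windows of the same length the motif was in 8.68%, and the median was 6 CpG. A gene can have several windows, and a pair of Mest windows is shifted by only 3 bases. Counted by gene, 3 of 16 paternally expressed members (18.8%; Mest, Plagl1 and Mcts2) and 2 of 12 maternally expressed members (16.7%; Meg3 and Zim1) held the motif in any window, against 9.84% of all 27025 genes. The 16 include Kcnq1ot1, whose level was not analysed, with 0 matches. The match is a description of these letters and not a binding site. Methylation was not analysed here.

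The imprinted genes were far more abundant in the 3 earlier populations than in HSCs. Together the 33 measured members made up 1.28 to 1.78% of summed FPKM in the 7 Endo, HE and pre-HSC libraries. FL HSC libraries had a share of 0.168 and 0.213%, and BM HSC libraries one of 0.0898 and 0.0945%. H19, a long noncoding RNA, alone gave 36.5 to 53.1% of the members' sum in the 7 earlier libraries, and without it the share of the other members was 0.601 to 1.12% there, 0.109 and 0.12% at the FL stage, and 0.0888 and 0.0936% at the BM stage. Paternally expressed members made up 0.41 to 0.724% in the earlier libraries and 0.0147 and 0.0152% in BM HSCs. Between 8 and 12 members were at or above 100 FPKM in each earlier library, against 4 and 3 in the FL libraries and 1, Gnas, in each BM library.

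**Figure D1:**
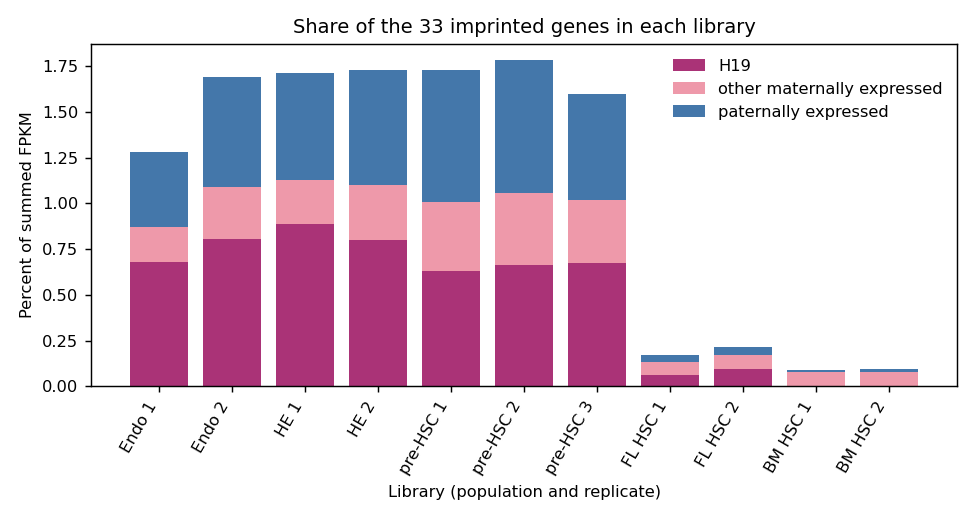
Share of the 33 imprinted genes in the summed FPKM of each of 11 libraries (y axis, percent; x axis, population and replicate), stacked as H19, the other maternally expressed genes and the paternally expressed genes. The 7 earlier libraries sit at 1.28 to 1.78% and the BM libraries at 0.0898 and 0.0945%.

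Of the 5 populations, HE and pre-HSCs held the highest mean of most members. The mean was highest in HE for 18 of 33 members, in pre-HSCs for 9, in Endo for 3 (Phlda2, Sgce and Mkrn3), in BM HSCs for 3 (Slc22a18, Impact and Zrsr1) and in FL HSCs for 0. Over all 14708 genes tested, the highest mean was in HE for 15%, in pre-HSCs for 16.9% and in Endo for 11.7%. It was in BM HSCs for 32.9% and in FL HSCs for 23.4%. For 22 of the 30 tested members (73.3%), every Endo, HE and pre-HSC library was above every FL and BM library, where 17.1% of all genes tested had this order. The opposite order was found for 1 member, Slc22a18, and for 20.3% of all genes. Mirg, Zim1, Nnat and Magel2 passed the filter only through their earlier levels, so a difference was built into their selection.

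**Figure D2:**
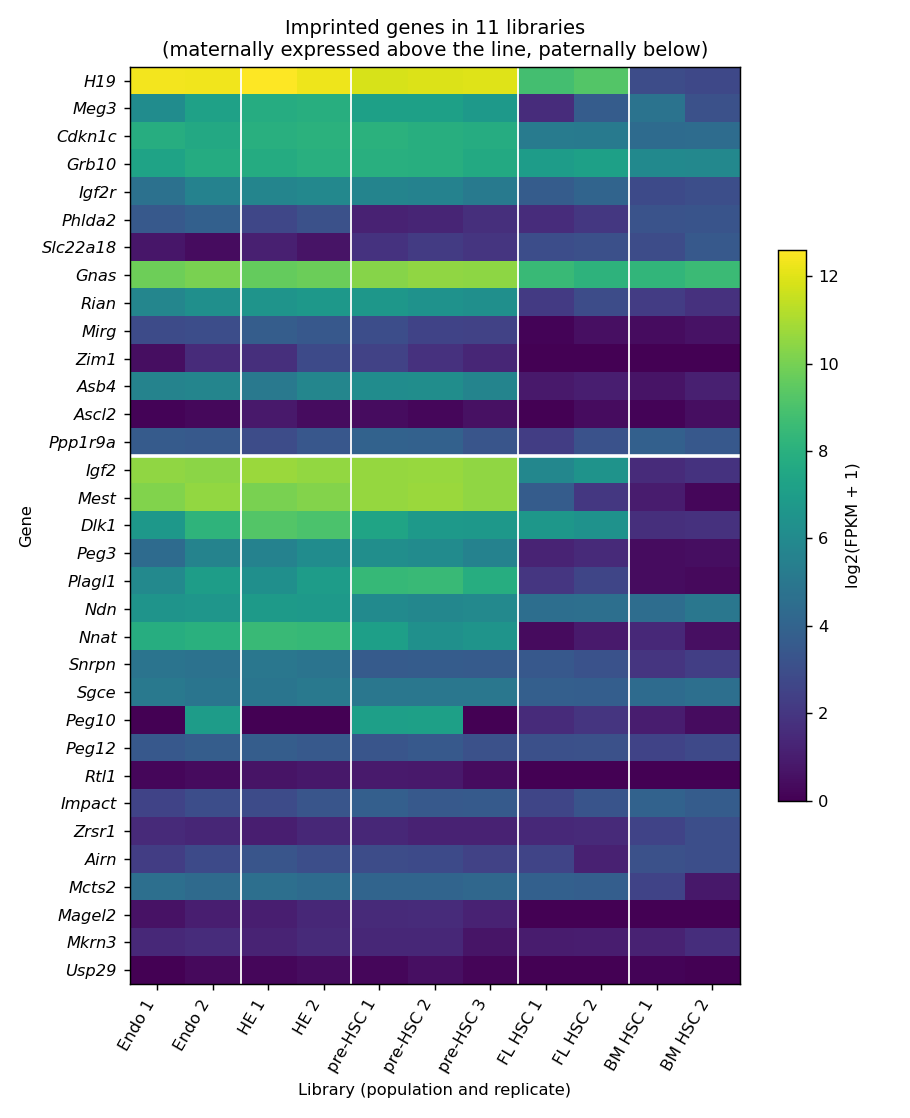
Level of each of 33 imprinted genes (rows) in 11 libraries (columns), as log2(FPKM + 1) from 0 (dark) upward, with maternally expressed genes above the horizontal line and paternally expressed genes below it. Most rows darken from pre-HSCs to FL HSCs, while Slc22a18 brightens, and Peg10 alternates between 0 and over 100 FPKM within a population.

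Members were compared between neighboring populations by limma on log2(FPKM + 1). A call needed 3 things: an F test over the populations (adjusted p under 0.01), a pairwise test (adjusted p under 0.05), both adjusted over all 14708 genes, and a change of at least 2-fold. Log2 fold changes are on that scale, which understates the change of low genes. Between Endo and HE, 0 of 30 members were called by limma, where 0.0544% of all genes were called higher in HE and 0.0748% lower. At an unadjusted p under 0.05, 6 of 30 members differed, and 2 of these, Dlk1 and Zim1, by at least 2-fold. Among all 14708 genes, 1216 differed at that p, and 336 of these by at least 2-fold. The median log2 fold change of the members was 0.21, against 0.03 for all genes.

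From HE to pre-HSCs, Plagl1 and Slc22a18 rose and Dlk1, Nnat, Snrpn and Phlda2 fell. These 2 and 4 of 30 compare with 6.98% of all genes called higher and 4.34% called lower. The members' median was -0.14 and that of all genes 0.09, and with FPKM scaled to equal totals they were 0.03 and 0.22. Mural and mesenchymal markers moved with the members that fell: 8 of 12 were called lower, and their summed FPKM went from 1405 and 1556 in HE to 621, 288 and 367 in pre-HSCs. Erythroid markers were also lower (6 of 8 called), at 4462 and 5754 in HE and 561 to 756 in pre-HSCs. Macrophage markers moved the opposite way (6 of 6 called higher), from 6.18 and 8.95 to 132 to 596. The part of these cells in the members' changes was not tested.

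The main change lay between pre-HSCs and FL HSCs. There 17 of 30 members fell and 1, Slc22a18, rose, where 13.9% of all genes were called lower and 11.1% higher. Mirg, Zim1, Nnat and Magel2, which passed the filter only through their earlier levels, are among the 17. The members' median log2 fold change was -1.53, against 0.11 for all genes. Of the 13 tested maternally expressed members, 9 fell and 1 rose, with a median of -2.08. Of the 17 tested paternally expressed members, 8 fell and 0 rose, with a median of -1.20. Marker genes of cell types moved in both directions in the same transition. All 8 endothelial markers were called lower, from 2173 to 2405 summed FPKM in pre-HSCs to 137 and 159.6 in FL HSCs. CD31, CD144 and ESAM were part of the pre-HSC gate, so this list marks the sorted pre-HSCs themselves. Of 12 mural and mesenchymal markers 11 were called lower, to sums of 6.89 and 13.8 with 4 at 0 in each FL library. Hematopoietic (6 of 8) and hepatocyte markers (2 of 7 tested) were called higher, with 0 lower. Erythroid (3 higher and 1 lower of 8) and megakaryocyte markers (2 higher and 1 lower of 5) were mixed. Macrophage (3 of 6), neural (2 of 5 tested) and germ cell markers (1 of 8) were called lower, with 0 higher. The part of any of these cells in the members' fall was not tested. In these bulk libraries, fewer cells of a type and less RNA per cell cannot be told apart.

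From FL to BM HSCs, 8 of 30 members fell and 2 rose, Phlda2 and Zrsr1. Of the 8, H19, Igf2, Mest and Plagl1 had also been called lower at the step before. Among all genes 4.07% were called lower and 5.99% higher, and the medians were -0.04 for the members and 0.00 for all genes. Maternally expressed members counted 2 falls and 1 rise in 13, paternally expressed members 6 falls and 1 rise in 17. When only the FL and BM libraries entered the fit, 3 calls were left (H19, Igf2 and Dlk1, all lower). Marker genes of cell types moved in both directions here too. All 8 erythroid markers were called lower, from 342 and 159.6 summed FPKM in FL HSCs to 21.2 and 33.9 in BM HSCs. Macrophage (2 of 6) and endothelial markers (1 of 8) were called lower, with 0 higher. Megakaryocyte (3 of 5) and hematopoietic markers (2 of 8) were called higher, with 0 lower. No mural and mesenchymal, neural or germ cell marker was called. Hepatocyte markers, which could come with cells of the fetal liver, summed to 65.4 and 29.1 FPKM at the FL stage, against 53.8 and 62 at the BM stage, where Krt18 (44 and 48.9) and Hnf4a (6.79 and 9.18) gave most of it. Without Krt18 and Hnf4a, left out after the values were seen, the other 8 summed to 42.7 and 9.84 in the FL libraries and to 3 and 3.88 in the BM libraries. Of the 7 tested, Alb and Apoa1 were called lower at this step, with the members that fell, and Krt18 higher. FL HSC replicate 1 had higher hepatocyte and erythroid sums than FL HSC replicate 2. Of the 8 members that fell, H19 (448 and 602 FPKM in replicates 1 and 2) and Igf2 (56.5 and 89) were lower in replicate 1. Grb10 (122 and 142) and Plagl1 (2.95 and 5.28) were lower there too. Dlk1 (101 and 84.4), Mest (11.9 and 3.18), Snrpn (10.1 and 8.16) and Mcts2 (13.5 and 12.5) were higher there. The part of these cells in the members' fall was not tested. Taken directly from pre-HSCs to BM HSCs, a contrast that shares its libraries with both previous ones, 20 members were lower and 3 higher (14.5% and 14.3% of all genes). The 20 again include Mirg, Zim1, Nnat and Magel2.

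**Figure D3:**
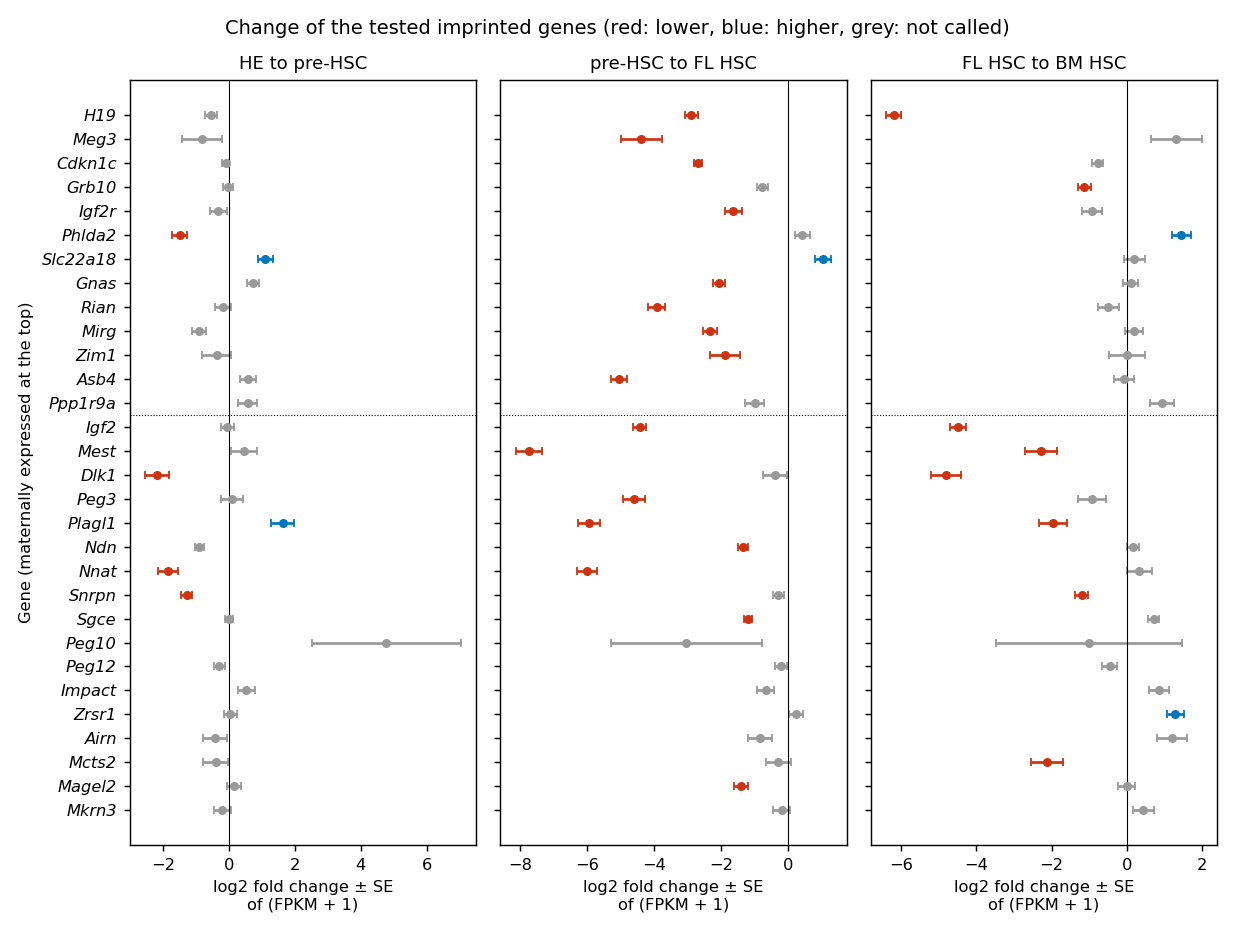
Log2 fold change (x axis) with its standard error from limma for the 30 tested imprinted genes (y axis) in 3 transitions. Red points are the genes called lower (4, 17 and 8), blue the genes called higher (2, 1 and 2) and grey those not called; the dotted line parts maternally from paternally expressed genes, and the wide bars of Peg10 come from its libraries at 0.

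H19 and Igf2 are neighbors on distal chromosome 7 that share enhancers and a control region methylated on the paternal allele. H19 (ENSMUSG00000000031, mm9 chromosome 7, 149761434 to 149764048, - strand) was at 5365 and 5163 FPKM (Endo), 6197 and 5046 (HE), 3606, 3861 and 4110.1 (pre-HSC), 448 and 602 (FL HSC), and 6.59 and 5.64 (BM HSC). Counted from the highest FPKM, it ranked between 1 and 10 in each of the 7 earlier libraries, 217 and 136 among FL HSCs, and 9039 and 9353 among BM HSCs. No library of one HSC stage overlapped another stage. H19 fell by 2.89 (SE 0.18, adjusted p = 1.08e-06) on the log2 scale from pre-HSCs to FL HSCs. It fell by 6.20 (SE 0.19, adjusted p = 2.77e-07) from FL to BM HSCs, a mean 85.9 times lower, the largest fall among the 30 tested members in that step.

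Igf2 (chromosome 7, 149836673 to 149852721, - strand) was at 1441 and 1374 FPKM (Endo), 1694 and 1479 (HE), 1555, 1625 and 1459 (pre-HSC), 56.5 and 89 (FL HSC), and 1.89 and 2.58 (BM HSC). Its fall came in a pair of similar steps, of which the first was -4.43 (SE 0.19, adjusted p = 1.16e-07) and the second -4.48 (SE 0.21, adjusted p = 1.89e-06). From Endo to HE and from HE to pre-HSCs its log2 fold changes were 0.17 (SE 0.21) and -0.04 (SE 0.19), and neither was called. H19 exceeded Igf2 in FPKM in all 11 libraries. The ratio of their levels was 3.41 to 3.76 in Endo and HE, 2.32, 2.38 and 2.82 in pre-HSCs, 7.94 and 6.76 at the FL stage, and 3.49 and 2.18 at the BM stage.

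Igf2r (chromosome 17) is known as maternally expressed. It was at 25.4 and 46.6 FPKM (Endo), 51.5 and 58.8 (HE), 50.3, 47 and 36.1 (pre-HSC), 11.7 and 15.4 (FL HSC), and 6.22 and 7.02 (BM HSC). It fell into FL HSCs at a log2 fold change of -1.64 (SE 0.25, adjusted p = 0.000423) on the log2 scale. The level of Igf2r relative to Igf2 went from 0.0176 to 0.0398 in the earlier libraries to 0.207 and 0.173 at the FL stage and 3.29 and 2.72 at the BM stage. Airn, the paternally expressed RNA that overlaps Igf2r and silences it in cis, stayed between 1.26 and 8.9 FPKM and was not called in any transition. Without FL HSC replicate 1 it was called lower in FL HSCs (-1.56, SE 0.28, adjusted p = 0.00267) and higher again in BM HSCs (1.90, SE 0.30, adjusted p = 0.00656).

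Grb10 was at 159 and 217 FPKM (Endo), 214 and 245 (HE), 244, 240.1 and 198 (pre-HSC), 122 and 142 (FL HSC), and 61.3 and 58.2 (BM HSC). Every BM library was below every FL library, and these below all earlier ones. It fell from FL to BM HSCs at a log2 fold change of -1.13 (SE 0.18, adjusted p = 0.00237), while the step before, at -0.78 (SE 0.16, adjusted p = 0.00321), was under 2-fold. Gnas, which encodes the stimulatory G protein alpha subunit and is imprinted in some tissues only, was at 894 and 1074 FPKM (Endo), 784 and 881 (HE), 1269, 1475 and 1396 (pre-HSC), 372 and 284 (FL HSC), and 314 and 385 (BM HSC). It fell into FL HSCs at a log2 fold change of -2.08 (SE 0.18, adjusted p = 9.32e-06) and was by far the highest member in BM HSCs. The gene holds several transcripts of different imprinting that 1 value does not separate, and 13.1% and 8.8% of its exonic bases overlap AF085738 and Nespas on the other strand, which these unstranded libraries do not tell apart.

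**Figure D4:**
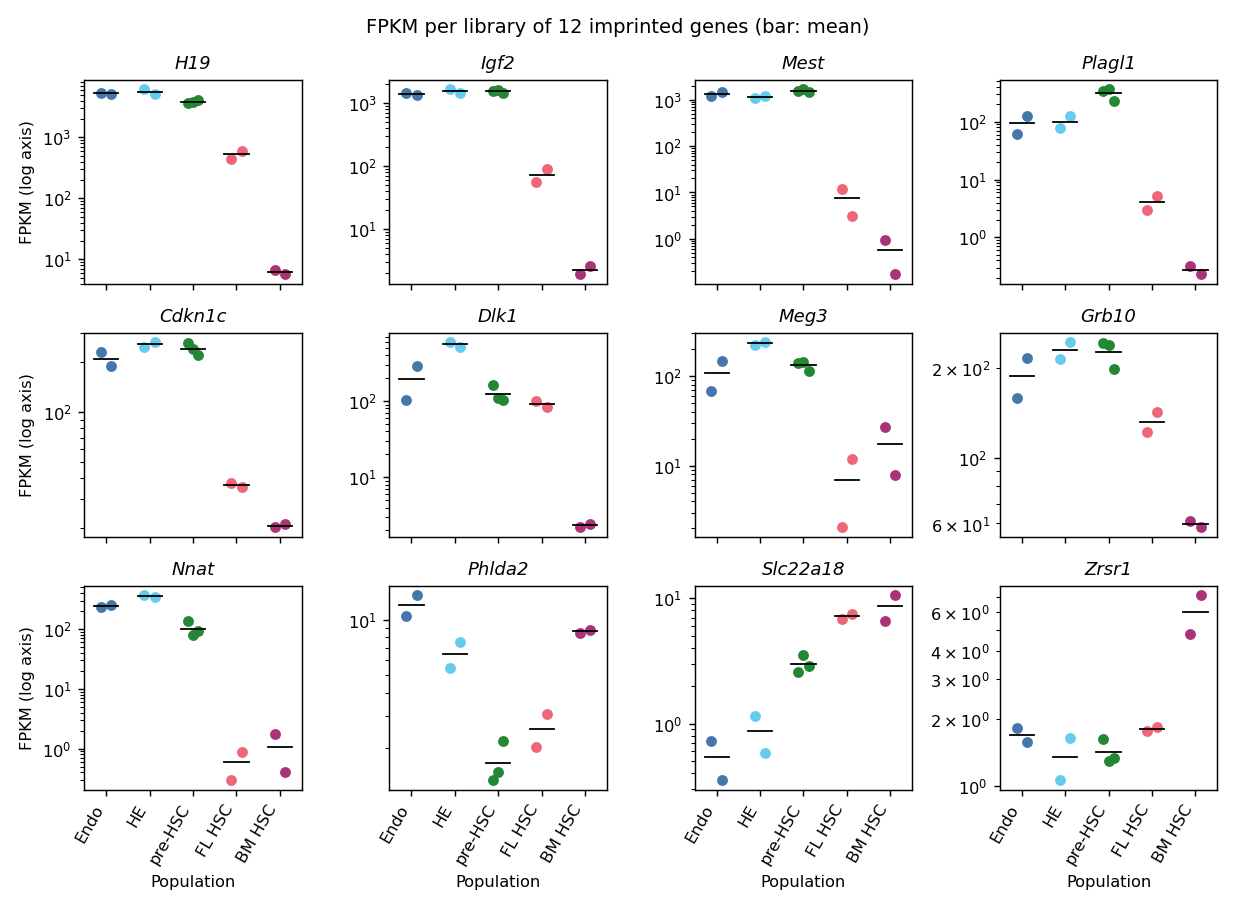
FPKM (y axis, log scale, a different range in each panel) of 12 imprinted genes in the 5 populations (x axis), with 1 point per library and a bar at the mean. H19 and Igf2 drop at each HSC stage, Dlk1 is highest in HE at 597 and 518, and Slc22a18 is higher in all FL and BM libraries than in the earlier ones.

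The neighboring domain of Igf2 on chromosome 7, with the control region KvDMR, includes Cdkn1c, Phlda2 and Slc22a18. Cdkn1c (chromosome 7, 150644255 to 150646955, - strand) was at 229.7 and 191 FPKM (Endo), 247 and 265 (HE), 261, 239 and 220.1 (pre-HSC), 37.2 and 35.1 (FL HSC), and 20.1 and 21.1 (BM HSC). Its fall into FL HSCs was -2.69 (SE 0.12, adjusted p = 1.84e-07). From FL to BM HSCs the value of -0.78 (SE 0.14, adjusted p = 0.00365) was under 2-fold, though the libraries did not overlap. BM HSCs held the lowest Cdkn1c level of the 5 populations.

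Phlda2 encodes a pleckstrin-homology protein known to limit placental growth. It was at 10.4 and 13.6 FPKM (Endo), 5.47 and 7.59 (HE), 1.34, 1.48 and 2.2 (pre-HSC), 2.04 and 3.08 (FL HSC), and 8.46 and 8.81 (BM HSC). The level fell from HE to pre-HSCs at a log2 fold change of -1.49 (SE 0.23, adjusted p = 0.00196) and rose from FL to BM HSCs by 1.45 (SE 0.25, adjusted p = 0.00365). The pre-HSC and FL libraries were all below the libraries of the other 3 populations. Slc22a18, a transporter of the solute carrier family, was at 0.725 and 0.352 FPKM (Endo), 1.15 and 0.582 (HE), 2.6, 3.55 and 2.88 (pre-HSC), 6.86 and 7.48 (FL HSC), and 6.63 and 10.6 (BM HSC). It rose from HE to pre-HSCs (log2 fold change 1.11, SE 0.24, adjusted p = 0.00991) and again into FL HSCs (1.03, SE 0.24, adjusted p = 0.00615). The first call was lost without HE replicate 2 (0.89). The second was lost without pre-HSC replicate 1 (0.96), without FL HSC replicate 2 (0.98) and with FPKM scaled to equal totals (0.83). Ascl2, also of this domain, stayed at or below 0.793 FPKM.

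The Dlk1-Dio3 domain on chromosome 12 holds Dlk1, which encodes a Notch-related transmembrane protein, and Rtl1 on the paternal allele, and the noncoding RNAs Meg3, Rian and Mirg on the maternal allele. Dlk1 was at 103 and 289 FPKM (Endo), 597 and 518 (HE), 162, 111 and 103 (pre-HSC), 101 and 84.4 (FL HSC), and 2.19 and 2.46 (BM HSC). From HE to pre-HSCs it fell by 2.17 (SE 0.36, adjusted p = 0.0028), and from FL to BM HSCs it fell by 4.81 (SE 0.39, adjusted p = 8.31e-05). Between pre-HSCs and FL HSCs, where Igf2 and Mest fell, Dlk1 differed by -0.41 (SE 0.36, adjusted p = 0.37). From Endo to HE the value was 1.68 (SE 0.39, adjusted p = 0.222), and without Endo replicate 2, the Endo library with the higher level, it was 2.43 (SE 0.26, adjusted p = 0.0287) and called. Mural and mesenchymal markers summed to 253 and 623 FPKM in the same Endo libraries and 1405 and 1556 in HE, and 12 of 12 were fitted higher in HE (2 called). Like Dlk1 their sum was lower in Endo replicate 1 than in Endo replicate 2 and higher in both HE libraries. The order of the HE libraries was the opposite. The 2 called markers, Acta2 (67.8 and 61.1 FPKM in Endo replicates 1 and 2) and Tagln (45 and 38.8), also had the opposite order in Endo. The part of mural and mesenchymal cells in the level of Dlk1 was not tested.

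Meg3 was at 68.1 and 148 FPKM (Endo), 224 and 239 (HE), 139.6, 142 and 113 (pre-HSC), 2.05 and 11.9 (FL HSC), and 26.8 and 7.79 (BM HSC). It fell into FL HSCs at a log2 fold change of -4.39 (SE 0.61, adjusted p = 0.000266). From FL to BM HSCs the value of 1.32 (SE 0.67, adjusted p = 0.189) was not called and the libraries overlapped, but without FL HSC replicate 2 it was 2.36 (SE 0.61, adjusted p = 0.0244). Rian, the host of box C/D snoRNAs, was at 53.5 and 75.7 FPKM (Endo), 90.2 and 106 (HE), 101, 84.9 and 75.2 (pre-HSC), 3.41 and 6.52 (FL HSC), and 3.74 and 2.53 (BM HSC). Mirg, the miRNA host, was at 6.41 and 7 FPKM (Endo), 12.2 and 10 (HE), 6.94, 4.81 and 4.69 (pre-HSC), 0.105 and 0.441 (FL HSC), and 0.351 and 0.557 (BM HSC). Both fell into FL HSCs, Rian at -3.92 (SE 0.25, adjusted p = 1.52e-06) and Mirg at -2.34 (SE 0.22, adjusted p = 1.94e-05). From HE to pre-HSCs Mirg was at -0.91 (SE 0.22, adjusted p = 0.0145), under 2-fold, and was called without HE replicate 2 (-1.04) or pre-HSC replicate 1 (-1.07).

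Relative to Dlk1, the level of Meg3 was 0.375 to 1.28 in the 7 earlier libraries, 0.0204 and 0.141 at the FL stage, and 12.3 and 3.16 at the BM stage. Rtl1, a retrotransposon-derived gene needed in the placenta, was at or below 0.895 FPKM in every library and listed at 0 in both BM libraries.

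Mest, Plagl1 and Nnat showed some of the steepest falls of the paternally expressed genes. Mest encodes an alpha/beta-hydrolase of mesodermal tissue. It was at 1175 and 1485 FPKM (Endo), 1054 and 1215 (HE), 1549, 1687 and 1442 (pre-HSC), 11.9 and 3.18 (FL HSC), and 0.958 and 0.172 (BM HSC). The fall from pre-HSCs to FL HSCs was -7.73 (SE 0.39, adjusted p = 3.52e-07), with means of 1559 and 7.53 FPKM, the largest of the members called in that step. It went on into BM HSCs at -2.28 (SE 0.43, adjusted p = 0.00564). Of its exonic bases 23.0% overlap Copg2 on the opposite strand.

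Plagl1 encodes a zinc finger transcription factor that is known to act on other imprinted genes. It was at 61 and 126 FPKM (Endo), 77.4 and 124 (HE), 341, 368 and 227 (pre-HSC), 2.95 and 5.28 (FL HSC), and 0.326 and 0.229 (BM HSC). It was the paternally expressed member that rose from HE to pre-HSCs (1.63, SE 0.34, adjusted p = 0.00846), a call lost without HE replicate 1 (1.30, adjusted p = 0.0997). At the next steps it fell by 5.94 (SE 0.34, adjusted p = 8.06e-07) and then fell by 1.96 (SE 0.38, adjusted p = 0.00602). Nnat, which encodes neuronatin, a small proteolipid of the endoplasmic reticulum, was at 233 and 256 FPKM (Endo), 374 and 345 (HE), 135, 78.6 and 92.2 (pre-HSC), 0.294 and 0.885 (FL HSC), and 1.75 and 0.408 (BM HSC). Its fall began before the fetal liver, at -1.84 (SE 0.30, adjusted p = 0.00265) from HE to pre-HSCs, and was -6.01 (SE 0.30, adjusted p = 3.27e-07) into FL HSCs. Neural markers summed to 36.1 to 78 FPKM in the earlier libraries and at most 1.07 in HSCs, with 5 of 6 measured at 0 in each FL and BM library. Stmn2 gave most of the sum in pre-HSCs (64.8, 67.7 and 75.5) and rose from HE, while 3 of the 5 tested, Sox2, Elavl3 and Sox10, fell with Nnat from HE to pre-HSCs. Without Stmn2 (left out after the values were seen) the other 5 summed to 16 and 25 FPKM in HE and to 5.5, 4.24 and 2.52 in pre-HSCs. The part of neural cells in the level of Nnat was not tested.

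Peg3 and Zim1 are neighbors on proximal chromosome 7. Peg3, a zinc finger protein gene, was at 20.3 and 48 FPKM (Endo), 46.9 and 69.8 (HE), 72.9, 67.3 and 46.5 (pre-HSC), 1.35 and 1.81 (FL HSC), and 0.336 and 0.369 (BM HSC). Into FL HSCs it fell by 4.60 (SE 0.33, adjusted p = 3.54e-06). Zim1, its maternally expressed neighbor, was at 0.378 and 1.96 FPKM (Endo), 2.25 and 6.05 (HE), and 4.68, 2.46 and 1.59 (pre-HSC), and was listed at 0 in all 4 HSC libraries. It was called lower in FL HSCs (adjusted p = 0.0053), a call lost with no filter and without FL HSC replicate 1, BM HSC replicate 1 or BM HSC replicate 2 (adjusted p = 0.0311, 0.00847 and 0.00856, each with the F test missed). Usp29 did not exceed 0.422 FPKM.

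The chromosome 6 domain holds the paternally expressed Sgce and Peg10 and the maternally expressed Asb4 and Ppp1r9a. Asb4, a subunit of a ubiquitin ligase known from the vessels of the embryo, was at 49.4 and 51.7 FPKM (Endo), 33.2 and 53.1 (HE), 68.9, 72.1 and 49.8 (pre-HSC), 0.842 and 1.05 (FL HSC), and 0.588 and 1.15 (BM HSC). It fell into FL HSCs at a log2 fold change of -5.04 (SE 0.24, adjusted p = 2.12e-07). Sgce, which encodes epsilon-sarcoglycan, was at 33.3 and 28.7 FPKM (Endo), 29.1 and 32.7 (HE), 31.2, 30.7 and 31 (pre-HSC), 13.1 and 12.7 (FL HSC), and 20.1 and 23.3 (BM HSC). Its level was nearly the same in the 7 earlier libraries before a fall of -1.20 (SE 0.12, adjusted p = 3.65e-05), and it was then 0.71 (SE 0.14, adjusted p = 0.00589) higher in BM HSCs, under 2-fold.

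Ppp1r9a, which encodes the actin-binding protein neurabin, was at 11.4 and 10.6 FPKM (Endo), 6.73 and 9.53 (HE), 14.7, 14.2 and 9.11 (pre-HSC), 3.93 and 7.96 (FL HSC), and 13.5 and 9.94 (BM HSC), with no call. Peg10, a retrotransposon-derived gene, was listed at 0 in Endo replicate 1, both HE libraries and pre-HSC replicate 3, and was at 123 FPKM in Endo replicate 2 and 139 and 144 in the other pre-HSC libraries. In FL HSCs it was at 1.88 and 2.83 and in BM HSCs at 0.998 and 0.358. Over all genes, 69 had a 0 in at least 1 library beside a median above 20 FPKM, so such a 0 can be a failed estimate, and no fold change is given for Peg10.

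The Prader-Willi domain of chromosome 7 gives paternally expressed RNAs. Ndn, which encodes necdin, a growth suppressor known in HSC quiescence, was at 91.2 and 95.9 FPKM (Endo), 115 and 109 (HE), 63.6, 55.7 and 60.5 (pre-HSC), 22.2 and 23.6 (FL HSC), and 21.9 and 30.7 (BM HSC). It fell into FL HSCs at a log2 fold change of -1.35 (SE 0.14, adjusted p = 4.64e-05), and the FL and BM libraries overlapped. Snrpn, which encodes a spliceosomal protein, was at 28.1 and 26 FPKM (Endo), 31.1 and 27.6 (HE), 11.4, 11.9 and 11.1 (pre-HSC), 10.1 and 8.16 (FL HSC), and 2.82 and 4.07 (BM HSC). Its falls came at the steps on either side, -1.28 (SE 0.16, adjusted p = 0.000812) from HE to pre-HSCs and -1.20 (SE 0.18, adjusted p = 0.0018) from FL to BM HSCs, the second lost without BM HSC replicate 1 (-0.99).

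Peg12 was at 10.1 and 12.2 FPKM (Endo), 12.1 and 10.4 (HE), 9.11, 10.3 and 7.75 (pre-HSC), 7.49 and 7.68 (FL HSC), and 4.7 and 5.8 (BM HSC), and was not called. Magel2, a partner of ubiquitin ligases, lay between 0.515 and 1.88 FPKM in the earlier libraries and was listed at 0 in all 4 HSC libraries (called lower in FL HSCs, adjusted p = 0.000467). Mkrn3, between 0.665 and 2.15 FPKM, was not called.

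The remaining paternally expressed members were retrocopies or single genes of modest level. Impact, a regulator of translation under stress, was at 4.82 and 6.84 FPKM (Endo), 6.27 and 9.15 (HE), 12.9, 10.5 and 11 (pre-HSC), 5.19 and 8.66 (FL HSC), and 14.6 and 11.6 (BM HSC), and did not pass the F test (adjusted p = 0.0162). Without FL HSC replicate 2 it was called lower in FL HSCs (-1.01) and higher in BM HSCs (1.18). Zrsr1 was at 1.06 to 1.84 FPKM in all libraries up to FL HSCs and at 4.79 and 7.15 in BM HSCs. It rose from FL to BM HSCs (1.29, SE 0.23, adjusted p = 0.00423), a call lost without BM HSC replicate 2 (1.05, adjusted p = 0.0329, with the F test missed) and with quantile normalization (0.95). Mcts2 was at 23.6 and 19.2 FPKM (Endo), 23.3 and 19.9 (HE), 15.6, 15.9 and 17.2 (pre-HSC), 13.5 and 12.5 (FL HSC), and 4.78 and 0.779 (BM HSC), and fell by 2.13 (SE 0.42, adjusted p = 0.00652) at the last step. Zrsr1 and Mcts2 are retrocopies of Zrsr2 and Mcts1 and can share reads with them, so their values are uncertain.

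Across the 4 transitions 24 of the 30 tested members (80%) were called at least once and 9 (30%) in more than 1, where 35% and 10.3% of all 14708 genes were. Mirg, Zim1, Nnat and Magel2, with a difference built into their selection, are among the 24. H19, Igf2, Mest and Plagl1 (13.3%) fell at both HSC steps, as did 0.809% of all genes. No called fall into FL HSCs (0 of 17) was followed by a called rise into BM HSCs, which 8.38% of the 2040 genes called lower in FL HSCs showed. With only 17 genes, a count of 0 cannot be told from that share. Sgce rose by 0.71 (SE 0.14), under 2-fold, and Meg3 by 2.36 without FL HSC replicate 2. Ppp1r9a, Peg10, Peg12, Impact, Airn and Mkrn3 were not called in any.

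Further imprinted genes were called in both directions from pre-HSCs to FL HSCs, where 13.9% of all genes were called lower and 11.1% higher. Of 17 tested among 20 further maternally expressed genes, 4 fell and 2 rose from pre-HSCs to FL HSCs, with a median of -0.35. The most abundant, Cd81, a tetraspanin gene, had 313 ± 21 (SD, n = 3) FPKM in pre-HSCs and, in FL HSCs, 229 ± 41.6 (SD, n = 2), and Nap1l4, a histone chaperone gene, at 144 ± 5.7 (SD, n = 3) and 155 ± 1.32 (SD, n = 2), neither called. Of 5 tested among 13 further paternally expressed genes, 3 fell and 0 rose at that step, with a median of -1.12, and from pre-HSCs to BM HSCs it was -1.83, against -1.50 for the paternally expressed members. Slc38a4, an amino acid transporter gene, was at 31.2, 31 and 25.4 FPKM (pre-HSC), 0.575 and 0.247 (FL HSC), and listed at 0 in both BM libraries (log2 fold change into FL HSCs -4.43, SE 0.18, adjusted p = 9.84e-08). The difference between these lists and the members was not tested.

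Genes of the IGF pathway that are not imprinted were called in both directions. Of 13 tested genes 6 fell and 2 rose into FL HSCs, and 5 fell and 0 rose from FL to BM HSCs. Among all genes 13.9% fell and 11.1% rose at the first of these steps, and 4.07% fell and 5.99% rose at the second. Igfbp4, which encodes a secreted IGF-binding protein, had 534 ± 49.5 (SD, n = 3) FPKM in pre-HSCs and, in FL HSCs, 127 ± 20.4 (SD, n = 2) (-2.07, SE 0.17, adjusted p = 7.09e-06). Igfbp2 was at 51.2, 39.8 and 48.7 in pre-HSCs and listed at 0 in all 4 HSC libraries. Igf2bp2, which encodes an RNA-binding protein that binds Igf2 mRNA, was at 42 ± 3.07 (SD, n = 2) FPKM before and 6.36 ± 1.81 (SD, n = 2) after the step from FL to BM HSCs (-2.57, SE 0.23, adjusted p = 0.000123). Igf1r, the receptor through which IGF2 signals, rose into FL HSCs from 10.1 ± 1.08 (SD, n = 3) to 25 ± 1.36 (SD, n = 2) FPKM (1.23, SE 0.21, adjusted p = 0.00107), and was chosen after its values were seen.

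A list of 12 genes for the upkeep of imprints also held Dnmt3a and Dnmt3b, de novo DNA methyltransferase genes that set new methylation. Into FL HSCs 3 rose, with Dnmt3b (1.84, SE 0.16) among them, and 1 fell (11.1% and 13.9% of all genes). From FL to BM HSCs 0 rose and 2 fell (5.99% and 4.07% of all genes). The 2 were Dnmt3a (-1.18, SE 0.19) and Dnmt3b (-1.35, SE 0.17), named after their values were seen. Dnmt1, the maintenance DNA methyltransferase, rose from 65.9 ± 6.33 (SD, n = 3) FPKM in pre-HSCs to 136 ± 9.36 (SD, n = 2) one step later (1.04, SE 0.14, adjusted p = 0.000179). Uhrf1, which brings DNMT1 to DNA, was at 87.5 ± 2.02 (SD, n = 3) and 155 ± 12.8 (SD, n = 2), and Trim28, the corepressor of ZFP57, at 216 ± 5.5 (SD, n = 3) and 289 ± 33.4 (SD, n = 2), both under 2-fold. The gene that fell into FL HSCs was Zfp57, named after its values were seen. It was at 53.8, 49.8 and 38 FPKM in pre-HSCs and 4.38 and 2.37 in FL HSCs (-3.49, SE 0.28, adjusted p = 7.08e-06).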

How the data were processed

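The authors sequenced poly(A)-selected libraries made with a kit that does not mark strand, mapped reads to mm9 by TopHat, counted unique alignments and took genes from Ensembl 66. Cufflinks, Subread, featureCounts and edgeR stand in the submitters' processing notes with no version. FPKM per gene were deposited in 1 table by the authors, without naming the tool behind the values. Reads could not be recovered from the low values (at most 6 single-exon genes shared one), so depth is unknown and there is no interval or floor. Summed FPKM ran from 569851 to 789161 per library. Of the IDs, 97.9% were found in GENCODE M1 (NCBIM37, Ensembl 65), the source of symbols and positions.

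Log2(FPKM + 1) of the 14708 genes at 1 FPKM or more in at least 2 of 11 libraries was fitted with limma 3.58.1 (lmFit, eBayes with trend) in R 4.3.3, by population, with Benjamini-Hochberg adjustment over all genes. The study's own test needs counts and was replaced by limma. Python 3.11.15 with pandas 2.3.3 and numpy 2.4.6 made the tables, and matplotlib 3.10.9 the plots. The fit was tested on simulated data. Members and lists were chosen with earlier results of these data known. Members with a mean of at least 10 FPKM in a population are given per library, others by range unless called. From each further list, genes are named among the 4 of highest mean FPKM. Exceptions are Igf1r, Zfp57, Dnmt3a, Dnmt3b and the single marker genes, which were chosen after their values were seen. Alternatives were pseudocounts of 0.1 and 0.5, no filter, quantile normalization, equal totals, a stricter adjusted p, no F test, a replicate block, only the populations compared, and each library left out.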

Additional observations from a re-analysis of the deposited data

How the results depend on the processing

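The 57 member calls were recomputed under 20 alternatives. Of 1140 values 1111 kept their call, 29 lost it and 0 reversed, and 42 of the 57 calls were lost under none. The number of members called from FL to BM HSCs went from 10 to 3 (0 higher, 3 lower) when only the populations compared entered the fit, which then had 4 libraries. In that fit with 2 populations the F test repeats the pairwise test and asks for an adjusted p under 0.01, and the 7 lost calls had 0.0175 to 0.048. The same setting lost Slc22a18 from HE to pre-HSCs (0.0176). Leaving out 1 library gave 0 to 1 calls from Endo to HE (Dlk1, without Endo replicate 2), 5 to 7 from HE to pre-HSCs, 17 to 18 from pre-HSCs to FL HSCs, 9 to 12 from FL to BM HSCs and 20 to 23 from pre-HSCs to BM HSCs. Further losses were Grb10 from FL to BM HSCs with quantile normalization (-0.96) and with equal totals, and, from pre-HSCs to BM HSCs, Zim1 with no filter and without FL HSC replicate 1, BM HSC replicate 1 or BM HSC replicate 2, Slc22a18 and Zrsr1 without BM HSC replicate 2, and Ndn without BM HSC replicate 1. A lone library is assumed to vary like the other populations.

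Equal totals moved the median of all genes from 0.09 to 0.22 from HE to pre-HSCs and from 0.11 to -0.09 into FL HSCs. The split of all genes called higher and lower from HE to pre-HSCs was 1026 and 639, and became 1312 and 477 with equal totals and 802 and 832 with quantile normalization. Into FL HSCs it was 1637 and 2040, and became 1126 and 2329 with equal totals, while the members were at 0 higher and 18 lower and their median at -1.74. From FL to BM HSCs the split of 881 and 599 became 1005 and 464 and, with quantile normalization, 669 and 585. With the replicate block the calls were 0, 6, 18 and 10 in the 4 transitions and 23 from pre-HSCs to BM HSCs, the same numbers as without it. Deviations of same-numbered libraries correlated at 0.115 between Endo and HE, 0.156 between Endo and FL HSCs and 0.144 between HE and FL HSCs over 14708 genes, and at -0.155 between FL and BM HSCs. Whether an equal number marks a shared pool of embryos for Endo and HE was not stated, so the block was kept as an alternative only. Depth limits cannot be stated from FPKM.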
